A study of Mus musculus with 4 samples.

Results

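Wnt ligands, their Frizzled and Lrp receptors, and the secreted and membrane proteins that tune them were followed in cultured mouse cells after 4 h with spermidine. The members were chosen by gene symbol: the Wnt, Fzd, Sfrp, Dkk and Rspo families, Lgr4, Lgr5 and Lgr6, and Lrp5, Lrp6, Axin2, Wif1, Znrf3, Rnf43, Tcf7, Tcf7l1, Tcf7l2 and Lef1. The rule found 55 genes among the 32812 with a symbol in the deposited table, including Fzd10os, a noncoding transcript beside Fzd10 on the opposite strand. The cells are labelled as C57BL/6 female germline stem cells beyond passage 20. Both groups carry this label of cell type and strain, with 2 control and 2 spermidine (SPD) libraries of poly(A) RNA. The labels used here state no dose. Whether the groups hold the same cells was not tested. Whether replicate libraries were grown as separate cultures is not recorded, and p-values therefore reflect only library-to-library spread, which may be technical.

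Wnt proteins are secreted, lipid-modified ligands that bind a Frizzled receptor together with the co-receptor Lrp5 or Lrp6. Binding stops the destruction of beta-catenin, which then acts with Tcf and Lef factors on target genes such as Axin2. Sfrp, Dkk and Wif1 proteins block the signal outside the cell. R-spondins bind Lgr receptors and remove the ubiquitin ligases Znrf3 and Rnf43, which otherwise clear Frizzled from the membrane. In the ovary, Wnt4 and Rspo1 are known for their part in female gonad development, and Lgr5 marks cells of the ovarian surface epithelium.

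The libraries differed in depth and make-up, which bears on each value here. Control totals were 7206176 and 7128901 counts, and totals after spermidine were 787600 and 1718944. The ribosomal RNA row AY036118 took 1.64% to 1.68% of the controls and 29.6% to 30.7% of the spermidine libraries. The 49975 transcript rows that share every base with another row took no more than 0.00140% of each library's counts. A gene is thus counted almost only on bases that no other row shares, called its own bases. Of the 55 members, 14 had under 300 own bases, among them Rspo2 with 0, Dkk3 with 3 and Tcf7l2 with 48, and a low count for these does not show that the gene is silent. Counts on olfactory and vomeronasal receptor genes, which are known from sensory neurons, averaged 0.0634 and 0.155 per kb of own bases in control replicates 1 and 2, 3.17 in spermidine replicate 1 and 0.176 in spermidine replicate 2. The 95th percentile over these receptor genes was 11.04 counts per kb in spermidine replicate 1 and 1.06 in replicate 2. Germ cell markers were mixed. Ddx4 had 1 count and Dazl 3 counts in all 4 libraries together, on 434 and 432 own bases, while Tex19.1 had 1955 and 1770 control counts and 36 and 25 in spermidine, Dppa3 had 2 and 3 against 9 and 263, and Ifitm3 had 49 and 132 against 72 and 146. In bulk RNA, a change in the share of a cell type and a change in RNA per cell cannot be told apart.

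Of the 55 members, 19 passed the low-count filter, 10 of them were called higher in spermidine and 0 lower, by edgeR's quasi-likelihood test (Benjamini-Hochberg adjustment over 7836 genes, threshold 0.05). The 10 were the ligands Wnt4 and Wnt2b, the receptors Fzd1, Fzd3, Fzd8 and Lrp5, the R-spondin receptors Lgr4 and Lgr5, and the secreted Wnt-binding proteins Sfrp2 and Sfrp4. Over all tested genes, 24.8% were called higher and 3.99% lower. With no adjustment, 10 members had a p under 0.05, all higher, and DESeq2 and limma-voom also called 0 lower. The median log2 fold change was 2.87 for the tested members and 0.23 for all tested genes. These numbers are not support for a rise of the group, because 9 of the 10 called members passed the filter only through the spermidine libraries. Lrp5 was the exception. All 866 tested genes with 0 to 3 control counts were called higher, so for Lgr5, Sfrp2 and Wnt4, which are among them, the call adds nothing to having passed the filter. Among genes with both controls over the filter, 3.51% of 5135 were called higher and 6.10% lower, against 1 and 0 of 9 such members. With single libraries left out, the number of members called higher rose and fell with the number over all tested genes. Without spermidine replicate 1 fewer members and fewer genes were called, and without spermidine replicate 2 more of both. Fewer of both were called without control replicate 2, and none of either without control replicate 1. In these fits the median log2 fold change was 2.49 to 3.92 for tested members and 0.0045 to 0.40 for all tested genes. Those medians have the same limit from the filter.

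In CPM (counts scaled to library size by TMM), 11 of the 19 tested members had both spermidine libraries above both controls and 2 had both below, while 6 overlapped. The shares over all tested genes were 36.6% above and 29.6% below. The 11 were the 10 called members and Fzd2, and 9 of them passed the filter only through the spermidine libraries. Their number is therefore no support for a rise of the group. Of the 9 members with both controls over the filter, Fzd2 and Lrp5 were above, Fzd9 and Znrf3 were below, and the others overlapped. In the plot of levels by library, each of the 10 called members had control levels of 11.1 CPM or less, as did Tcf7, Wnt3 and Wnt10a.

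**Figure D1:**
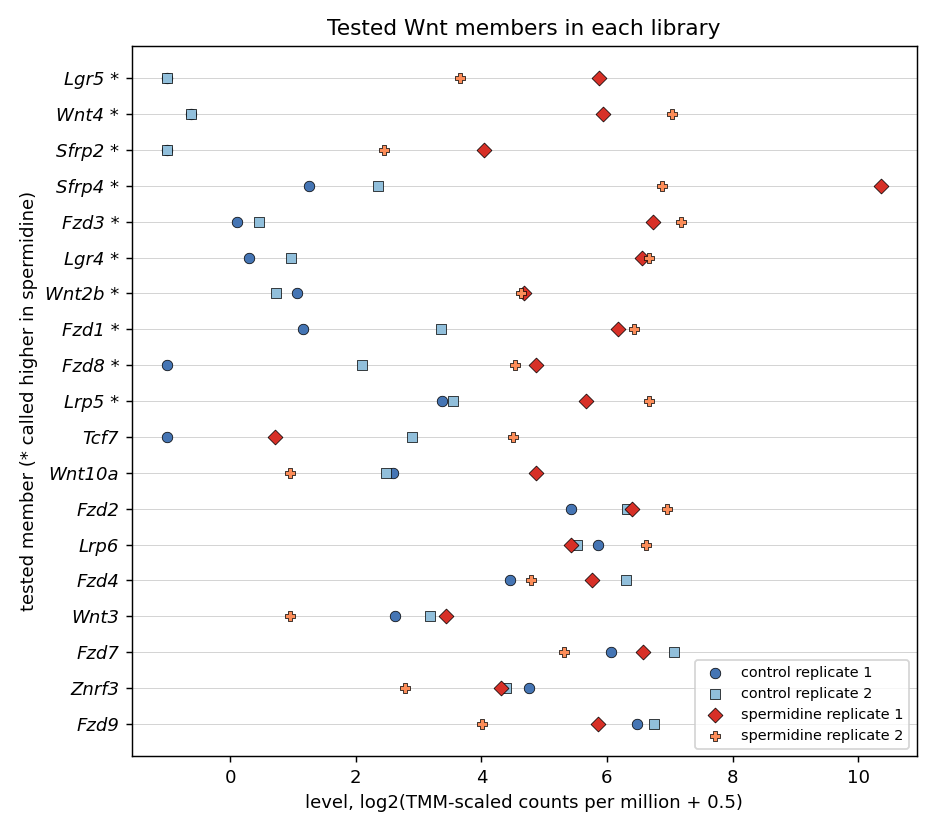
Level of the 19 tested members in each of the 4 libraries, as log2 of TMM-scaled CPM plus 0.5, ordered by fitted fold change. In the 10 members marked as called higher, both spermidine points lie to the right of both controls, and in the other 9 the groups overlap, apart from Fzd2, Fzd9 and Znrf3.

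Among the ligands, Wnt4 and Wnt2b rose, and Wnt3 and Wnt10a were not called. Wnt4, the ligand of female gonad development (chr4:137277635-137299501, plus strand, GRCm38), had 1 and 1 counts in control replicates 1 and 2 and 53 and 184 in spermidine replicates 1 and 2. These were 0.145 and 0.145 CPM against 60.6 and 131. Both spermidine libraries were far above the controls, at a pooled ratio of 718 (95% counting interval 197 to 5964, counting error only) and an adjusted p of 0.00281 by edgeR. Every tested gene with 0 to 3 control counts was called higher, so the call of Wnt4 adds nothing to its having passed the filter. Wnt2b, a ligand of the beta-catenin branch, had 11 and 8 control counts and 22 and 34 in spermidine, or 1.59 and 1.16 CPM against 25.2 and 24.2. The spermidine libraries were close to each other, and the fitted log2 fold change was 4.13 ± 0.85 (SE, edgeR adjusted p = 0.00779). The adjusted p of Wnt2b was 0.0624 without spermidine replicate 1 and 0.102 without control replicate 2.

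Wnt10a had 5.51 and 5.06 CPM in the controls and 28.6 and 1.42 in spermidine. Its spermidine libraries lay on opposite sides of the controls. The log2 fold change of Wnt10a was 1.31 ± 1.09 (edgeR adjusted p = 0.402), with 2.49 and a call without spermidine replicate 2 (adjusted p = 0.00994) and -1.87 without replicate 1. Wnt3, a ligand of early axis formation, had 39 and 59 control counts and 9 and 2 in spermidine, or 5.65 and 8.54 CPM against 10.3 and 1.42, with the same crossing. Its log2 fold change was -0.49 ± 1.03 (edgeR adjusted p = 0.757), and its 3.87 counts per kb in spermidine replicate 1 were near the receptor average there.

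The other 15 ligands were not tested. Wnt8a had 24 and 3 counts in spermidine and 0 in both controls, with 15.8 counts per kb in spermidine replicate 1, above the 95th percentile of the receptor genes. With AY036118 left out of the table Wnt8a passed the filter and was called higher, the only member that this setting added. With 0 control counts, it could pass only through the spermidine libraries. In the main fit all 866 tested genes with 0 to 3 control counts were called higher, so this call is no support for a rise of Wnt8a. Wnt9b had 4 and 11 control counts and 24 and 1 in spermidine, Wnt8b 12 in spermidine replicate 1 alone, and Wnt16 9 and 1 in the controls and 8 and 0 in spermidine. Wnt1 had 1 and 0 in the controls against 10 and 1, and Wnt5a, a ligand of the branch that acts without beta-catenin, had 0 and 0 against 9 and 3. Each of these 5 was under the 95th percentile of the receptor genes in spermidine replicate 1, and Wnt5a alone among them was above it in replicate 2, with 3.30 counts per kb. The remaining ligands had at most 9 counts in all.

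The receptors are given by how they stood in the controls. None of Fzd1, Fzd3 and Fzd8, the Frizzled genes called higher, had both controls over the low-count filter. Each needed its spermidine counts to be tested, so this order is no result about the receptors. Fzd3, a receptor of axon guidance and tissue polarity (chr14:65192441-65262463, minus strand), had 4 and 6 control counts and 93 and 202 in spermidine, or 0.580 and 0.868 CPM against 106 and 144. Both spermidine libraries were high, and the log2 fold change was 7.38 ± 0.77 (edgeR adjusted p = 0.00281). Over its 12742 own bases, spermidine replicate 1 had 7.30 counts per kb, above the receptor average and under the 95th percentile, and replicate 2 had 15.9. Fzd1 had 12 and 67 control counts and 63 and 121 in spermidine, or 1.74 and 9.69 CPM against 72.0 and 86.1. The controls differed more than the spermidine libraries did, and the log2 fold change of Fzd1 was 3.79 ± 0.82 (edgeR adjusted p = 0.00923). It was 5.48 without control replicate 2, and the call was lost without spermidine replicate 1 (adjusted p = 0.117). Fzd8 had 0 and 26 control counts and 25 and 32 in spermidine, or 0 and 3.76 CPM against 28.6 and 22.8. Its log2 fold change was 3.73 ± 1.12 (edgeR adjusted p = 0.0359), or 9.29 without control replicate 2, where the lone control has 0 counts and the value is set by the prior count. Its call was lost in 6 of 14 other settings, more than for any other called member, among them the fit without spermidine replicate 1 (adjusted p = 0.230), with the receptor background subtracted (0.0604) and with the replicate block (0.0703).

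Fzd2, Fzd4, Fzd7 and Fzd9 had the most counts of the Frizzled genes in the controls, and none of the 4 was called. Fzd9 had 613 and 741 control counts and 50 and 22 in spermidine, or 88.8 and 107 CPM against 57.2 and 15.7. Both spermidine libraries were below both controls, but they differed from each other by more than the nearer of them differed from control replicate 1 on the log scale, and the log2 fold change was -1.50 ± 0.69 (edgeR adjusted p = 0.145). Fzd2 had 42.7 and 79.0 CPM in the controls and 83.5 and 123 in spermidine. The groups of Fzd2 did not overlap, by a narrow margin, with a log2 fold change of 0.77 ± 0.57 (edgeR adjusted p = 0.349). Fzd7 had 66.5 and 134 CPM against 94.9 and 39.1, and Fzd4 21.4 and 78.3 against 53.7 and 27.0, so that the groups overlapped for both. Fzd10, Fzd5 and Fzd6 had at most 5 counts each, and Fzd5 and Fzd6 had only 107 and 167 own bases.

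Set beside each other per kb of own bases, the Frizzled levels changed in make-up. In the controls Fzd9 was highest, with 42.1 and 50.8 CPM per kb, followed by Fzd7 (13.8 and 27.9), Fzd2 (11.8 and 21.8) and Fzd4 (5.82 and 21.2), whose ranges overlapped. In spermidine replicate 1 the order began with Fzd9 (27.1), Fzd2 (23.0) and Fzd7 (19.7), and in replicate 2 with Fzd2 (33.9), Fzd1 (19.7) and Fzd3 (11.3). Fzd1, Fzd3 and Fzd8, the 3 that were called, made up 0.598% and 2.72% of the summed Frizzled level per kb in control replicates 1 and 2, against 27.95% and 39.8% in spermidine. These shares describe the called genes again and are no separate test. No receptor background was subtracted from them. In spermidine replicate 1, Fzd3 and Fzd8 had 7.30 and 7.47 counts per kb, under the 95th percentile of the receptor genes (11.04). The summed level of Fzd2, Fzd4, Fzd7 and Fzd9 per kb was 73.5 and 122 CPM in the controls and 84.4 and 56.8 in spermidine, with no separation of the groups.

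**Figure D2:**
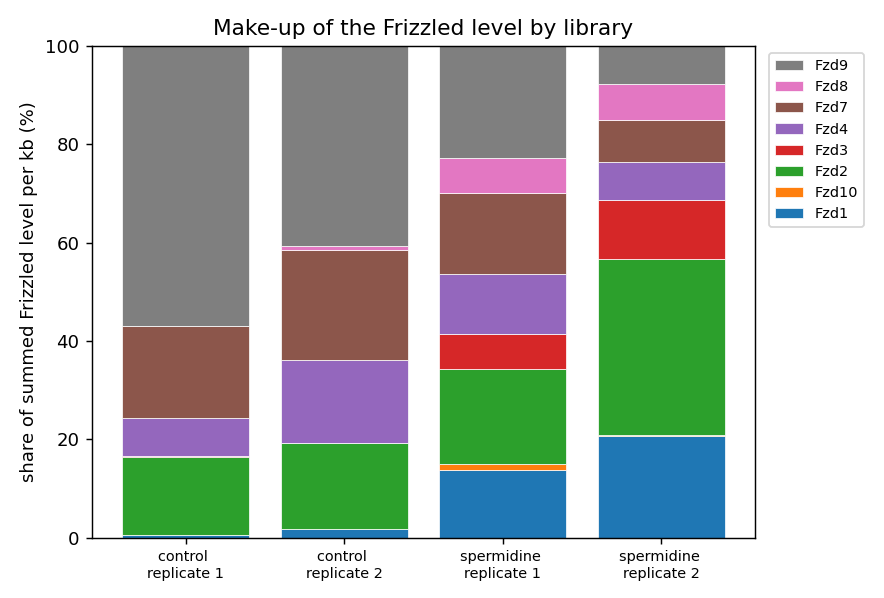
Share of the summed Frizzled level, in percent, for each Frizzled gene with at least 300 own bases in each library, from TMM-scaled CPM per kb of own bases. No receptor background was subtracted. Fzd9 took 56.9% and 40.6% of the control bars and 22.7% and 7.82% of the spermidine bars, where Fzd1, Fzd3 and Fzd8 are visible bands.

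The co-receptors differed in their calls. Lrp5 (chr19:3584825-3686564, minus strand) had 68 and 77 control counts and 44 and 143 in spermidine, or 9.85 and 11.1 CPM against 50.3 and 102. The controls were close, both spermidine libraries were higher, and the log2 fold change was 2.87 ± 0.65 (edgeR adjusted p = 0.0106). Its call held without either spermidine library and was lost without control replicate 1 (adjusted p = 0.187) or control replicate 2 (0.137), where the lone control was assumed to vary like the spermidine group. Lrp6, the other co-receptor, had 57.2 and 45.3 CPM in the controls and 42.3 and 98.2 in spermidine. Its groups overlapped, with a log2 fold change of 0.48 ± 0.60 (edgeR adjusted p = 0.589). The difference between the changes of Lrp5 and Lrp6 was not tested.

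Of the R-spondin axis, the receptors Lgr4 and Lgr5 rose. Lgr4 (chr2:109917647-110014257, plus strand) had 5 and 10 control counts and 82 and 143 in spermidine, or 0.725 and 1.45 CPM against 93.8 and 102. The spermidine libraries were nearly equal, and the log2 fold change of 6.45 ± 0.76 (edgeR adjusted p = 0.00288) was 6.11 or more with each single library left out, with the call lost only without control replicate 1 (adjusted p = 0.0750). Lgr5 (chr10:115450314-115587780, minus strand) had 0 and 0 control counts and 51 and 17 in spermidine, at least 137-fold higher over the groups against a floor of 3 control counts (edgeR adjusted p = 0.00628, a call that every gene with so few control counts received). Spermidine replicate 1 had 58.3 CPM and replicate 2 had 12.1. Its 10.8 counts per kb in spermidine replicate 1 lay just under the 95th percentile of the receptor genes, and its 3.61 in replicate 2 lay above it. The call of Lgr5 was lost without spermidine replicate 1 (adjusted p = 0.0830). Znrf3, the ligase that Lgr4 and Lgr5 oppose, had 26.5 and 20.4 CPM in the controls and 19.4 and 6.41 in spermidine. Its spermidine libraries were below both controls, one of them narrowly, with a log2 fold change of -0.96 ± 0.81 (edgeR adjusted p = 0.411). Rspo1, Rspo2, Rspo3 and Rspo4, the ligands of the axis, had 3, 0, 3 and 1 counts in all, and Rnf43 had 6, on 136 own bases.

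Wnt4 and Lgr4 are used to show upstream sequence, because both were called higher and their windows differ widely in base composition. Neither gene had a control library over the low-count filter, so each needed its spermidine counts to be tested. The choice is for display and adds no support to either call. The windows are the 250 bases before the RefSeq start (GRCm38.p6), at chr4:137277385-137277634 for Wnt4 and chr2:109917397-109917646 for Lgr4, both on the plus strand, with CG dinucleotides in capitals.
Wnt4: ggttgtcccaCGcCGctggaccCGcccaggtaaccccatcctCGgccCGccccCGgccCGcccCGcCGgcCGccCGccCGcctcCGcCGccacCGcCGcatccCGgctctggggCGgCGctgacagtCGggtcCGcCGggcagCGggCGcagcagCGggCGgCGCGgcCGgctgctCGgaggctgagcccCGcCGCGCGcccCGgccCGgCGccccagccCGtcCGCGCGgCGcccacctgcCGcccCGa
Lgr4: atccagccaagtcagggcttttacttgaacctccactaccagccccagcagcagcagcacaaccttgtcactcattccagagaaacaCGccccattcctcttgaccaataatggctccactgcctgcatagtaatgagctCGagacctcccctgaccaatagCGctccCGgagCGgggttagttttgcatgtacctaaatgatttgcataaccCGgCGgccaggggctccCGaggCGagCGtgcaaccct
The Wnt4 window is 85.2% G and C with 44 CG dinucleotides, and the Lgr4 window 55.6% with 10, against medians of 52.4% and 6 over 32851 RefSeq windows of this length. The motif of Tcf and Lef factors, searched as CTTTGAA or CTTTGAT on both strands, was in neither window. It was in 0 of the windows of the 5 called members that had one (Fzd1, Lgr4, Sfrp2, Wnt2b and Wnt4), in 3 of 45 windows of all members and in 7.48% of all windows. That says only that these letters are not in these windows.

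Of the 9 secreted inhibitors only Sfrp4 and Sfrp2 were tested, and both were called higher, against 24.8% of all tested genes. Both passed the filter only through the spermidine libraries, so these calls are no support for a rise of the inhibitors. Sfrp4 (chr13:19623175-19632825, plus strand) had 13 and 32 control counts and 1150 and 164 in spermidine, or 1.88 and 4.63 CPM against 1315 and 117. Both spermidine libraries were above the controls, and replicate 1 was far above replicate 2. The log2 fold change was 7.76 ± 1.28 (edgeR adjusted p = 0.00591). Without spermidine replicate 1 it was 5.15 ± 0.65 (adjusted p = 0.0624). Sfrp4 alone held 54.3% of the counts of all members in that library. Sfrp2 had 0 and 0 control counts and 14 and 7 in spermidine, at least 42.4-fold higher over the groups against a floor of 3 control counts (edgeR adjusted p = 0.00912, with the same limit as for Lgr5). The adjusted p was 0.0889 without spermidine replicate 1. With 9.52 counts per kb in spermidine replicate 1, Sfrp2 was under the 95th percentile of the receptor genes, while its 4.76 in replicate 2 was above it. Sfrp1, Dkk2 and Dkk3 had 0 counts on 185, 88 and 3 own bases. Dkk1 had 3 counts, Dkk4 2, Sfrp5 8 and Wif1 8, and the 8 counts of Wif1 were all in spermidine replicate 1.

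Of the nuclear factors, only Tcf7 was tested. Tcf7, a partner of beta-catenin known from T cells, had 0 and 48 control counts and 1 and 31 in spermidine, or 0 and 6.95 CPM against 1.14 and 22.1, on 196 own bases. Each group had 1 library near 0, and the log2 fold change of 1.90 ± 1.38 (edgeR adjusted p = 0.339) turned to -1.49 without spermidine replicate 2 and was 8.28 without control replicate 2, where the lone control has 0 counts and the value and its call (adjusted p = 0.0305) rest on the prior count. Lef1, Tcf7l1 and Tcf7l2 had 1, 0 and 1 counts. Axin2, the feedback inhibitor used as a readout of the pathway, had 0 and 0 control counts and 11 and 1 in spermidine and did not pass the filter. Its 9.47 counts per kb in spermidine replicate 1 and 0.861 in replicate 2 were under the 95th percentile of the receptor genes in each library.

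**Figure D3:**
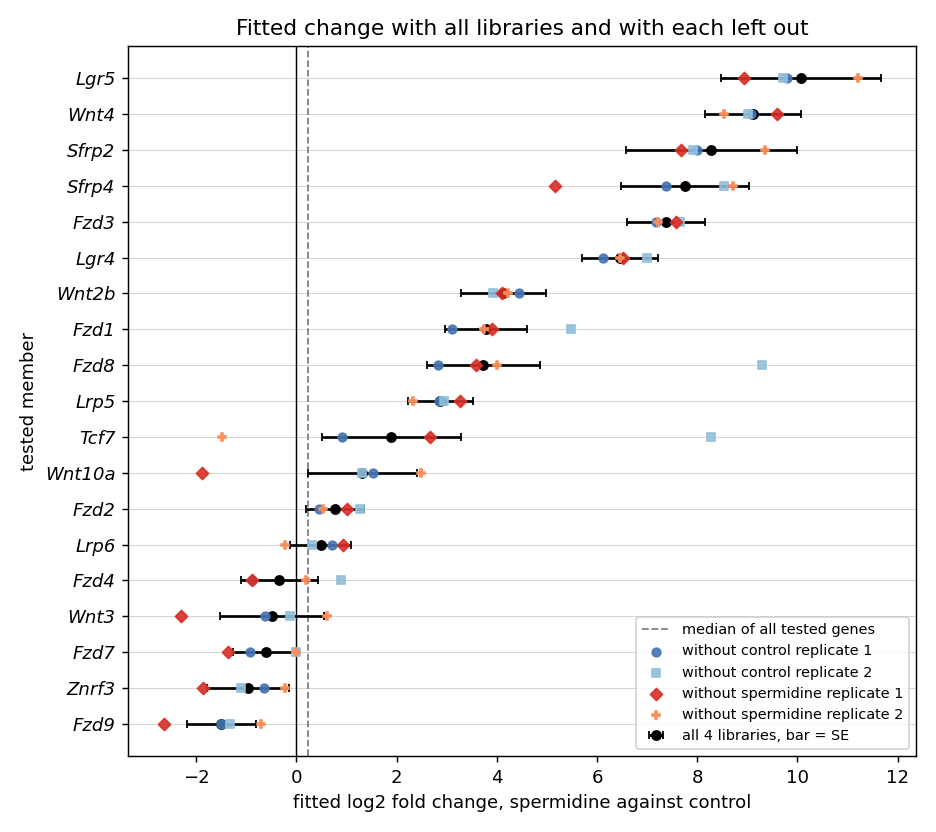
Fitted log2 fold change of the 19 tested members with all 4 libraries (black, bars are SE) and with each library left out (coloured); values for Lgr5, Sfrp2 and Wnt4 depend on the prior count, since their control counts are 0 to 2 in all, as do those of Fzd8 and Tcf7 without control replicate 2. Fzd3, Lgr4 and Wnt4 stay within their bars, Sfrp4 falls to 5.15 without spermidine replicate 1, and Fzd8 and Tcf7 move most without control replicate 2.

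Spermidine replicate 1 carried most of the counts of members that were not tested. Of these 36 members, 28 had a count in spermidine replicate 1 and 9 in replicate 2, and 25 had more counts in replicate 1 than in the other 3 libraries together. Over the 23 with at least 300 own bases, the median in spermidine replicate 1 was 2.91 counts per kb, against 3.17 for the receptor genes, and 2 of the 23, Wnt8a and Wnt11, were above the 95th percentile. Of the 10 called members, 5 (Fzd1, Lgr4, Lrp5, Sfrp4 and Wnt4) were above that percentile in spermidine replicate 1 and 10 were above it in replicate 2. Of all 19 tested members, 10 were above it in spermidine replicate 1 and 17 in replicate 2. Members that passed the filter only through the spermidine libraries had to have counts there, so this does not set the called members apart. With the mean receptor background subtracted per base, 9 of the 10 were called, all but Fzd8, against 17.9% called higher over all genes tested in that fit. The mean lies under the 95th percentile in both spermidine libraries. Of the 9, all but Lrp5 had needed their spermidine counts to pass the filter in the main fit. This setting therefore cannot decide whether the calls stand above the background.

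**Figure D4:**
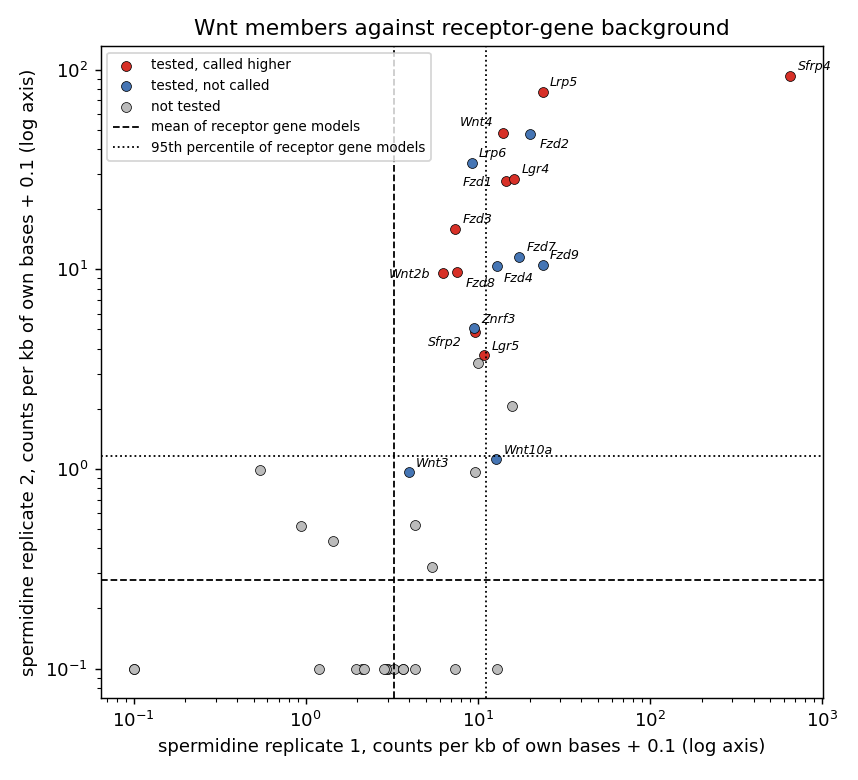
Counts per kb of own bases in spermidine replicate 1 (x axis) and replicate 2 (y axis), both log axes with 0.1 added, for members with at least 300 own bases, which leaves out Tcf7; dashed and dotted lines are the mean and 95th percentile over 1291 receptor genes. All 10 called members lie above the dotted line of replicate 2, and 5 of them lie left of the dotted line of replicate 1. Of all 19 tested members, Tcf7 included, 17 were above the 95th percentile in replicate 2.

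Other genes of the pathway were read from lists chosen by role. Against 24.8% called higher over all tested genes, co-receptors outside the families above were higher for 4 of 4 tested, from 9 listed: Ror2, a Wnt5a receptor, with 0 and 1 control counts and 18 and 61 in spermidine, and the proteoglycan genes Gpc3 (1 and 3 against 17 and 292), Gpc4 (0 and 1 against 16 and 98) and Sdc1 (20 and 9 against 20 and 82). The smallest of the 4 changes was that of Sdc1, with a log2 fold change of 4.30 ± 0.86 (edgeR adjusted p = 0.00765). Of 3 tested extracellular inhibitors, 2 rose: Frzb, a relative of the Sfrp genes, by 6.62 ± 0.98, and Apcdd1, a membrane inhibitor, by 5.82 ± 0.96 (edgeR adjusted p = 0.00378 and 0.00577). Of 2 tested nuclear co-factors Pygo1 rose, from 0 and 6 counts to 26 and 22, and of 3 planar polarity genes Vangl2 rose, from 2 and 3 counts to 29 and 23. Ror2 and Gpc4 are among the genes with 0 to 3 control counts, all of which were called higher. The other called genes of these lists had at most 20 counts in a control library. None of the called genes named here had both controls over the low-count filter, so each needed its spermidine counts to be tested. The numbers called are therefore no support for a rise of these lists.

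Of 7 tested genes of the destruction complex and its partners, 0 were called, with a median log2 fold change of 0.21. Among all genes with both controls over the low-count filter, such as Ctnnb1, Dvl2 and Tnks, 3.51% were called higher and 6.1% lower. The absence of calls is near those shares. Ctnnb1, the gene of beta-catenin, had 25 and 17 control counts and 2 and 1 in spermidine on 200 own bases (log2 fold change -1.18 ± 1.03, edgeR adjusted p = 0.424). Dvl2, which passes the signal on from Frizzled, had -0.35 ± 0.56 and Tnks, which marks Axin for destruction, 0.37 ± 0.58. Of 6 tested genes commonly used as beta-catenin targets, 0 were higher and Id2, a repressor of differentiation, was lower, with a log2 fold change of -1.74 ± 0.57 (edgeR adjusted p = 0.0491), with 3012 and 2733 control counts and 69 and 236 in spermidine. Apc, Ccnd1, Myc, Wls and Porcn had 0 counts in every library on 121, 0, 0, 0 and 1 own bases, so the table does not measure them. Gsk3b had 0 and 2 control counts and 2 and 4 in spermidine.

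**Figure D5:**
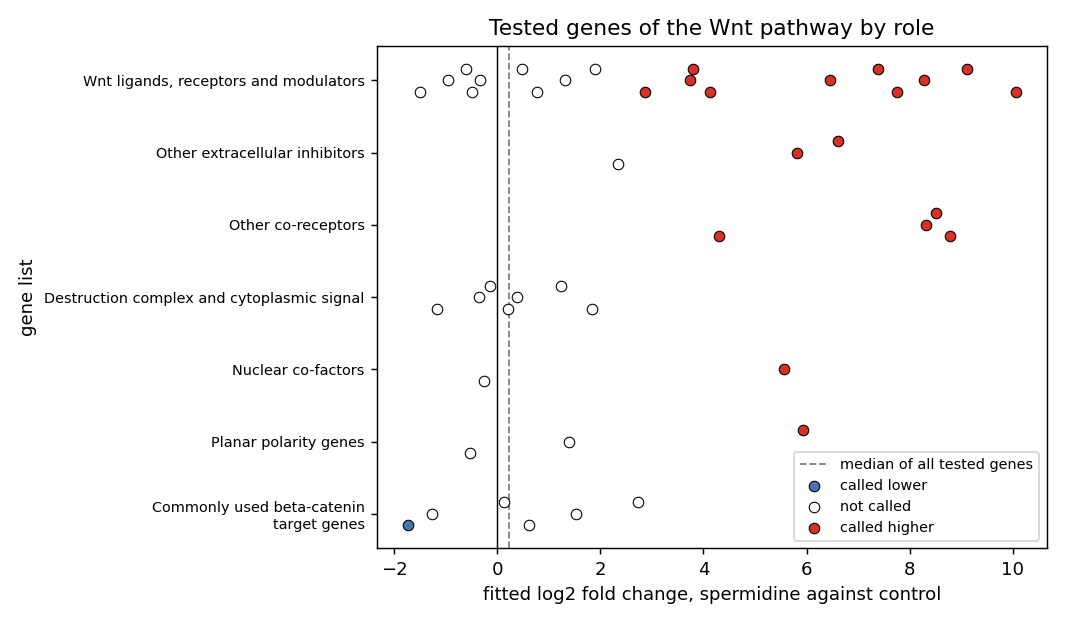
Fitted log2 fold change of each tested gene of the Wnt pathway, by role; red is called higher, blue lower and white not called, and the dashed line is the median of all tested genes, 0.23. The 7 tested genes of the cytoplasmic signal lie between -1.18 and 1.85 with none called, and all 4 tested co-receptors lie above 4. None of these co-receptors had both controls over the low-count filter, while Ctnnb1, Dvl2 and Tnks did, so the lists cannot be compared by role.

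Markers of ovarian cell types were higher in the same libraries, and for these too the share called higher over all tested genes was 24.8%, and 866 of 866 with 0 to 3 control counts. Granulosa genes were called higher for 8 of 8 tested, from 13 listed, with summed levels of 5.51 and 7.96 CPM in the controls and 535 and 6451 in spermidine replicates 1 and 2, and with Amh, Amhr2 and Gata4 at 0 throughout. Fibroblast and stroma genes summed to 74.9 and 179 against 2041 and 10419 CPM (5 of 8 tested called higher, from 9, with Pdgfrb at 0 in spermidine), surface epithelium genes to 0.290 and 0.868 against 97.2 and 242 (4 of 4 tested, from 7, with Msln at 0 in spermidine), and endothelial genes to 1.45 and 0.579 against 105 and 117 (3 of 3 tested, from 7, with Pecam1, Cdh5, Tek and Emcn at 0 throughout). Oocyte genes summed to 1.45 and 2.60 against 157 and 2304 CPM (5 of 5 tested, from 9, with Zp2 and Nobox at 0 throughout). Theca and steroid cell genes summed to 159 and 129 against 1838 and 676 (2 of 3 tested, from 7, with Hsd3b1, Lhcgr and Nr5a1 at 0 throughout). Star gave 1489 and 315 CPM of the spermidine sums. Germline genes summed to 296 and 282 CPM in the controls against 152 and 336 (2 of 4 tested called higher and 1 lower, from 9, with Nanos3 at 0 throughout). Blood cell genes went the other way, with 2323 and 1747 CPM in the controls and 301 and 155 in spermidine (4 of 4 tested called lower, from 10, with Spi1, Fcer1a and Laptm5 at 0 throughout). The share called lower was 3.99% over all tested genes and 6.1% among those with both controls over the low-count filter. Of the markers at 0 throughout, Spi1 had 407 own bases, Gata4 301, Nobox 254, Amhr2 152, Hsd3b1 147 and Lhcgr 134, and the others had 85 or fewer, so their 0 says little about the gene. The part of these cell types, and of depth, in the Wnt results was not tested.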

How the data were processed

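Per the file headers, the authors deposited raw whole-number counts for each of 106519 RefSeq transcripts, listed by exon. HISAT2, DESeq2 and mm9 are named in the submitters' processing notes, without roles. The exon positions of 43 of the 55 members lie wholly inside the gene's span in a GRCm38 RefSeq table, so positions are given as GRCm38. Accessions were matched to symbols without their version number (86040 rows, 80.8%), and rows were summed per gene. No source used here names the counting program.

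Genes were kept with filterByExpr by group (count minimum 10, total minimum 15, about 2.26 CPM in 2 libraries), scaled with TMM, then tested in R 4.3.3 with edgeR 4.0.16 (estimateDisp, glmQLFit, glmQLFTest), with group as the only term. The SE is the fold change divided by the root of the F statistic. Pooled ratios use TMM-scaled totals and exact 95% intervals, with no floor. Fold bounds, given where a group has 0 counts, use the same totals with a floor of 3 counts for that group. Alternatives used DESeq2 1.42.0 and limma 3.58.1 among others. Every member with 10 counts or more is named with its counts. In each pathway list, up to 3 called genes per direction are named by smallest p, besides Ctnnb1, Apc, Gsk3b, Ccnd1 and Myc. Sdc1, Dvl2, Tnks, Wls and Porcn were named after their values were seen. The members and lists were chosen with earlier results of these data known. The procedure was tested on simulated data. Replicates of a group differed by more than sampling noise (chi-square over degrees of freedom 40.8 and 32.2).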

Additional observations from a re-analysis of the deposited data

How the results depend on the processing

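The members called higher numbered 10 with all 4 libraries, and 9 to 11 with RLE or upper-quartile scaling, DESeq2, limma-voom, the replicate block, the receptor background subtracted, thinned controls, AY036118 left out and edgeR's legacy test, which was chosen after seeing the data. The share called higher over all genes tested was 24.8% in the main fit and 17.9% to 25.9% in these settings. With no low-count filter 0 genes and 0 members were called (4255 genes and 13 members at an unadjusted p under 0.05), and the median was 3.68 for members and 3.56 for all genes. When each library had to reach 1 CPM, 12 members were tested, since most called members have few control counts. Of these, 4 (Fzd1, Lrp5, Sfrp4 and Wnt2b) were called higher. Over the 5231 genes tested in that setting 275 were called, with 4.4% called higher. The median there was 0.98 for members and 0.059 for all genes. All called genes numbered 1495 with the receptor background subtracted and 1074 with controls thinned to 1253272 counts. With thinned controls the median was 3.80 for members and 0.17 for all genes. Leaving out single libraries gave 0 to 3725 called genes, 0 to 11 members higher and medians of 2.49 to 3.92. The 0 came without control replicate 1 (1926 genes and 9 members at an unadjusted p under 0.05), and without spermidine replicate 1 there were 484 genes and 4 members. Members called lower were 0 in each setting run.

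Changes of sign were limited to members that were not called. Fzd4 (-0.34) had 0.088 with 1 CPM in all libraries and 0.10 with thinned controls, and lay between -0.89 and 0.89 when single libraries were left out. In such fits Lrp6 lay between -0.22 and 0.94, Tcf7 between -1.49 and 8.28, Wnt10a between -1.87 and 2.49 and Wnt3 between -2.30 and 0.60. The causes were not tested. The replicate block gave 1775 called genes, 9 members higher and a median of 2.79. It changed the call of Fzd8 alone. The replicate numbers are not said to mark shared cultures, and the replicate differences of the groups correlated at -0.03 across genes. The floor of 3 counts equals 0.416 and 0.421 CPM for control replicates 1 and 2, and 3.81 and 1.75 CPM for spermidine replicates 1 and 2.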
